A study of Mus musculus with 30 samples.

Results

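Genes for the proteins of the cytosolic ribosome were followed through the development of the mouse ovary before birth. They were chosen by name. A probe set belonged to the family when the platform annotation gave it exactly 1 gene symbol, and that symbol was Rpl or Rps followed by a number with at most an a, x or l after it, or an Rplp or Rpsa symbol. The rule found 68 of 36701 probe sets (controls left out), which stood for 42 of 15964 named genes. Among them were 20 genes of the large subunit, 20 of the small subunit and 2 of the P stalk (Rplp0 and Rplp2). Array type A held 47 of the probe sets, type C held 20 and type B held 1. A further 51 probe sets list a ribosomal protein symbol beside other symbols, and the rule left these out.

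RNA came from pooled ovaries of BL/6-129 mice at 11.5, 12.5, 14.5, 16.5 and 18.5 days post coitum (dpc), with 2 numbered samples per age. Each number has 1 array of each of 3 Affymetrix types with different probe sets, which gives 30 arrays, 10 of each type. No treatment or altered gene is named for any group, and only the labels of 11.5 and 12.5 dpc name how sex was found, which was by PCR for Sry. Whether the pair of samples of an age were different pools of ovaries is not stated. The p-values below therefore cover the spread between these samples alone, and that spread may be technical. In whole ovaries, fewer cells of a type and less RNA per cell cannot be told apart.

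The ribosome translates mRNA into protein. Its small subunit reads the codons, its large subunit joins the amino acids, and the P stalk on the large subunit recruits the elongation factors. Ribosomal protein genes are transcribed strongly in nearly all cells. Their mRNAs typically start with a run of pyrimidines, the terminal oligopyrimidine or TOP tract, through which growth signals acting by mTOR control their translation as a group. A few members have close paralogs that are known mainly from germ cells or from muscle.

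The start regions of the genes on which the results turn are shown first, because a pyrimidine tract at the start is the feature the family is known for. RefSeq start sites (build GRCm38.p6) were found for 35 of the 42 genes, 8 of them with several starts. Each sequence below runs from 60 bases before the most upstream start to 20 bases after it, 5′ to 3′, and capitals mark a run of at least 8 C or T letters that lies within 20 bases of the start on either side. Rps24 and Rps26, which changed in opposite directions with age in the signals as deposited (both were lower when scaled on hybridisation controls), both hold such a run. Rpl7a is shown for the longest run found. Rpl41, Rps28 and the paralogs Rpl39l and Rpl10l were called higher at the latest age in the signals as deposited, and none of them has such a run that near to its start. Rpl19, also called higher, has a run of 11 that ends just before the second of its starts, which is not printed.
Rps24, chr14:24490618-24490697, plus strand: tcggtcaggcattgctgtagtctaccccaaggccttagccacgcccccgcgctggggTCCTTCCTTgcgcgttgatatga
Rps26, chr10:128626487-128626566, minus strand: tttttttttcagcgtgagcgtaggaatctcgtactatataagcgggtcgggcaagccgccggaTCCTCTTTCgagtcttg
Rpl7a, chr2:26910747-26910826, plus strand: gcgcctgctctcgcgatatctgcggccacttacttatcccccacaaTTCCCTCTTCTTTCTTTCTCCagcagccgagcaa
Rpl41, chr10:128549149-128549228, minus strand: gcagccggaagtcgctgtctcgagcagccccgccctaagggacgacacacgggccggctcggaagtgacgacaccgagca
Rps28, chr17:33824543-33824622, minus strand: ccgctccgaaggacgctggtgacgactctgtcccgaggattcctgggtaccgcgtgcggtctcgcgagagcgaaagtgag
Rpl39l, chr16:10170168-10170247, plus strand: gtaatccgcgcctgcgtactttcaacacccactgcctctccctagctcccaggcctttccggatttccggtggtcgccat
Rpl10l, chr12:66284382-66284461, minus strand: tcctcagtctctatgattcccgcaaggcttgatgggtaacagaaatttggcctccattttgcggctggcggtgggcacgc

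A pyrimidine run of this kind was present near a listed start of 16 of the 35 genes (45.7%), against 18.4% of 27025 genes with listed starts. Some of these runs end before the listed start, as in Rpl13, Rpl39, Rps15a and Rps27l. Such a run would lie outside an mRNA that begins there, so the count is not one of TOP tracts. Other motifs were searched on both strands from 250 bases before to 50 after each start. The GABP (ETS) motif CCGGAAG was found in 15 of 35 (42.9%), against 9.93% of all genes. The YY1 motif AAGATGGC was found in 5 (14.3%), against 3.19%, and the GC box GGGCGG in 21 (60%), against 38.2%. The E box CACGTG was found in 3 (8.57%, against 8.09%) and the TATA box TATAAA in 4 (11.4%, against 15.7%). The GABP letters and the pyrimidine run had the widest gaps in percentage between the family and all genes, with no test made. A match describes the letters only, and genes with several starts had several chances of a match.

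Each array gave 1 signal intensity for every probe set, and the submitters had scaled the arrays to a mean of 125. The number of arrays limits the precision. The mean signal over the 10 arrays was at least 1000 in 25 of the 68 probe sets, between 50 and 1000 in 20, and under 50 in 23. Signals of different probe sets depend on their probes and are not levels of different transcripts on a common scale. Of 17 genes with several probe sets, 7 had at least 1 with a mean of 1000 or more and another under 50. Rps4x, an X-linked protein of the small subunit, had 1 probe set at a mean of 8782 (100780_at) and 4 others between 7.46 and 27.6. Rpl7, of the large subunit, had 8186 (97695_s_at) and 11.4 (97697_at). A probe set near background need not stand for a low level of its gene.

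**Figure D1:**
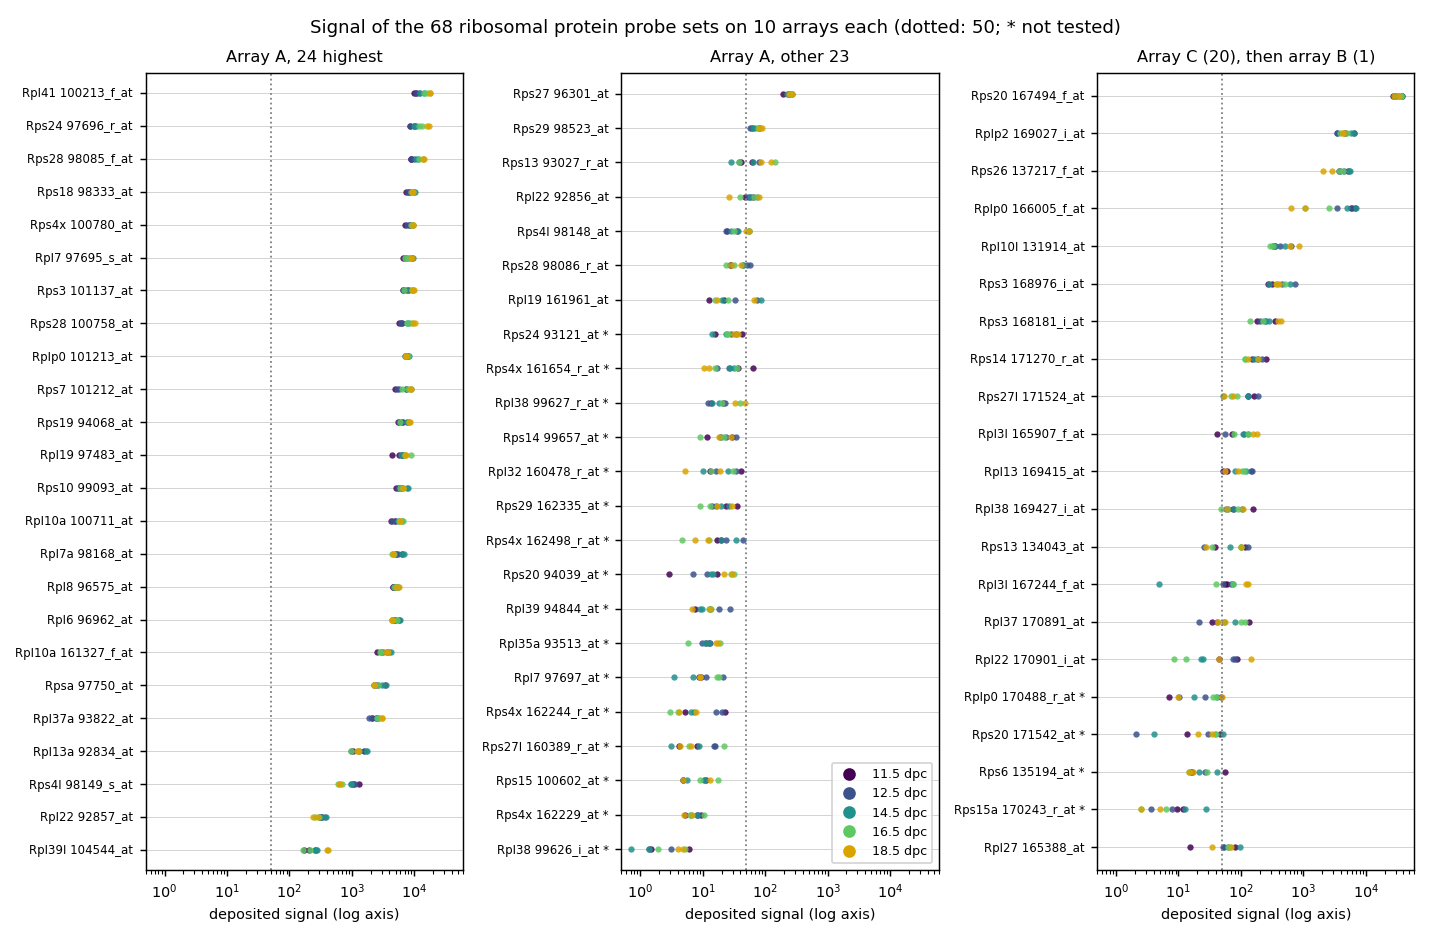
Deposited signal (x axis, log scale) of the 68 ribosomal protein probe sets (y axis, gene and probe set) on the 10 arrays of their type, coloured by age in dpc. The dotted line is at 50, and stars mark the 20 probe sets that were not tested; the same gene often appears both with strong signals and near background.

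Testing was limited to probe sets that reached a signal of 50 on 2 or more of the 10 arrays of their type, which kept 48 of the 68 members (36 genes), 31 on array A, 16 on C and 1 on B. The other 20 have no reported change. Just inside this limit was Rps28 98086_r_at, with a second-highest signal of 51.3, and just outside was Rplp0 170488_r_at with 47.7. Of 22 genes marked for a closer look for known roles beyond the ribosome or for close paralogs, Rpl5, Rpl11, Rpl24, Rpl10, Rpl3, Rps27a and Rplp1 had no member probe set. Rps6, the ribosomal target of S6 kinase, and Rpl39 had only probe sets near background that were not tested.

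Between 11.5 and 18.5 dpc most members with strong signals moved little, while a few moved clearly and in both directions. Rps24 (97696_r_at, whose source sequence is shared with an Rpl7 probe set), Rps28 and Rpl41 had between 1.59 and 1.78 times their early signal at 18.5 dpc. The paralogs Rpl39l and Rpl10l rose 2.06-fold and 2.08-fold. All these values are from signals as deposited. With the arrays scaled on their hybridisation controls (foreign transcripts added to every sample before hybridisation), these changes were negative except for Rpl39l. That scaling lowered most probe sets, with a median log2 change of -0.89 over all tested. A probe set of the stalk protein Rplp0 fell 7.51-fold, while its other tested probe set had a log2 change of 0.03 ± 0.13, and Rps26 and Rps4l fell 1.81-fold each. In limma's test over all 24825 tested probe sets, with Benjamini-Hochberg adjustment, an adjusted p under 0.05 was called. Of the 48 tested members 7 (14.6%) were called higher, against 7.59% of all tested probe sets, and 3 (6.25%) were called lower, against 6.87%. The share called lower was thus near that of all tested probe sets, and the share called higher was above it. In the F test over the 5 ages 9 members were called (18.8%), against 14.4% of all. Against probe sets of like strength the picture differed. Of the 21 members on array A with a mean signal of at least 1000, 23.8% were called higher, 0% lower and 19% in the F test. Among 308 other probe sets of array A with such a mean the shares were 12.3%, 25.3% and 35.4%. These 308 still include probe sets that list a ribosomal protein symbol among several, so they are not wholly outside the family. The median log2 change of the members was 0.25, and that of all tested probe sets was 0.02. Here and below a log2 change or fold is that of signal + 16, which understates the change of weak probe sets.

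**Figure D2:**
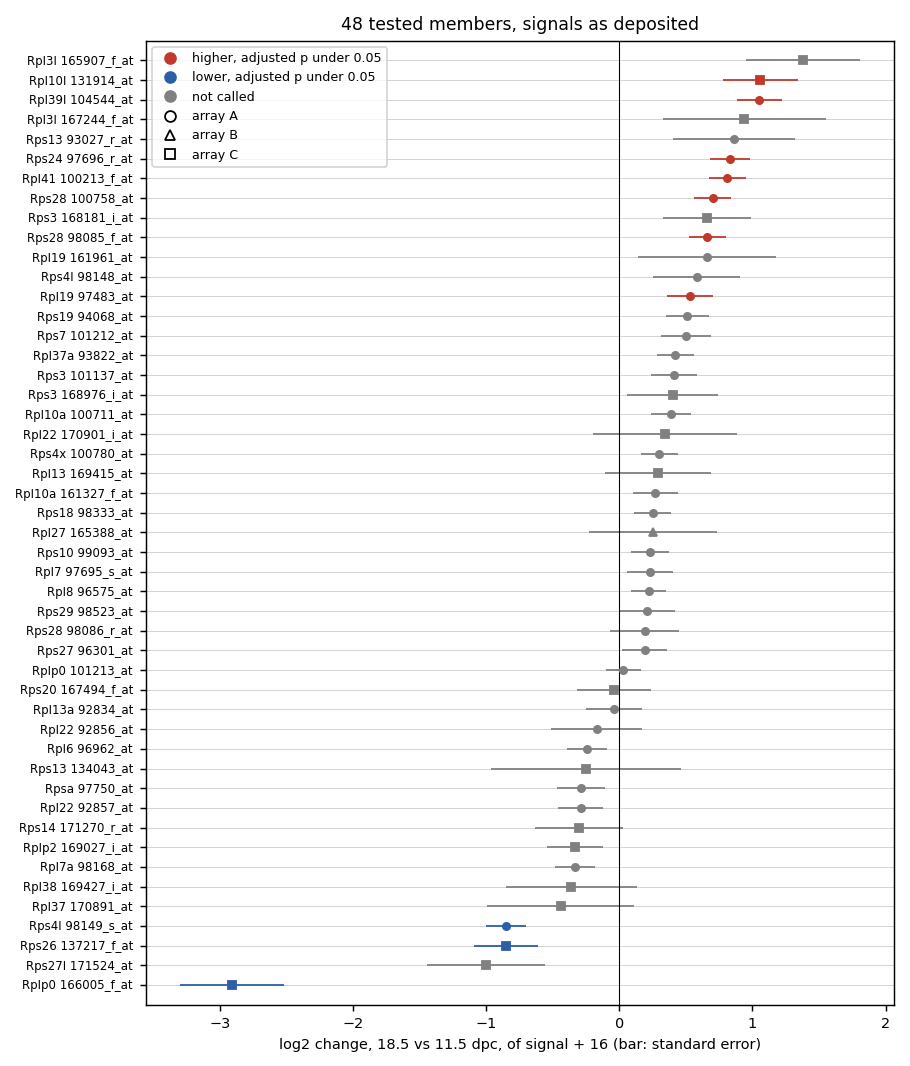
Log2 change of signal + 16 from 11.5 to 18.5 dpc (x axis) for the 48 tested member probe sets (y axis), with the standard error of the model as bars, 2 samples per age, signals as deposited. Of the 7 called higher, 6 would turn negative and Rpl39l would stay just above 0 if the arrays were scaled on their hybridisation controls. That scaling moves the median of all tested probe sets to -0.89.

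In the large subunit 22 probe sets of 17 genes were tested. Over 18.5 against 11.5 dpc 4 (18.2%) were called higher and none lower, against 7.59% and 6.87% of all tested probe sets, with a median log2 change of 0.28. At an unadjusted p under 0.05 limma gave 7 higher (31.8%) and 1 lower (4.55%), against 15% and 13.8% of all. Rpl41, a protein of the large subunit that is the shortest known in the ribosome, had signals of 10015 and 10630.9 at 11.5 dpc, 10797.3 and 11778.9 at 12.5 dpc, 14031.3 and 12373.9 at 14.5 dpc, 14286.5 and 16229.2 at 16.5 dpc, then 18004.3 and 18137.5 at 18.5 dpc. Both samples of each age lay above both samples of the age before. The probe set, 100213_f_at, has the same f suffix as that of Rps26 below. The log2 change to 18.5 dpc was 0.81 ± 0.14 (SE; 1.75-fold; limma adjusted p = 0.0024). It was not called with array medians made equal (0.58, limma adjusted p = 0.061), and turned to -0.25 when the arrays were scaled on their hybridisation controls. Under quantile normalization it was 0.02 (adjusted p = 0.94). That method gives every array of a type the same set of values. The change of a probe set that ranks at the top of every array, as here (mean percentile 100), is then held near 0. The value of 0.02 therefore cannot decide whether Rpl41 rose.

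Rpl19, a protein of the large subunit that reaches across to the small subunit, had 4333.8 and 5720.5 at 11.5 dpc, then 7229.7 and 7183.0 at 18.5 dpc, with the highest signal, 8925.4, in a sample of 16.5 dpc. Its log2 change of 0.53 ± 0.17 only just passed (limma adjusted p = 0.0497) and turned to -0.52 under scaling on the hybridisation controls. It was 0.31 with array medians made equal, 0.29 under quantile normalization and 0.20 relative to the median of the members. The direction held but the call was lost in 15 of 25 alternatives, among them 7 of 10 in which a sample was left out. Without 11.5 dpc replicate 1 the log2 change was 0.33 (adjusted p = 0.22), and without 12.5 dpc replicate 1 or 2 the adjusted p was 0.073. Without 14.5 dpc replicate 1 or 2 it was 0.066 or 0.067, and without 18.5 dpc replicate 1 or 2 it was 0.21 or 0.19.

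Other strong probe sets of the large subunit did not pass the test, and their values lay on both sides of 0. Rpl7a had 6438.1 and 5011.6 at 11.5 dpc, 6951.3 and 6458.5 at 14.5 dpc, then 4499.1 and 4552.5 at 18.5 dpc (log2 change to 18.5 dpc -0.33 ± 0.15, limma adjusted p = 0.17). Rpl6 had 5657.9 and 4719.1 at 11.5 dpc against 4400.0 and 4375.7 at 18.5 dpc (-0.24 ± 0.15, adjusted p = 0.35). Both thus had their 18.5 dpc samples below those of 11.5 dpc. Rpl37a had 2449.7 and 2067.0 against 3004.4 and 3007.4 (0.42 ± 0.14, adjusted p = 0.066), a value that turned to -0.63 under the hybridisation controls. Rpl10a 100711_at (0.39 ± 0.15, adjusted p = 0.11) and Rpl8 (0.22 ± 0.13, adjusted p = 0.31) also had both samples of 18.5 dpc above both of 11.5 dpc. With the other strong probe set of Rpl10a, 161327_f_at, the groups overlapped (0.27 ± 0.17, limma adjusted p = 0.33).

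Rpl22, which binds viral and cellular RNA besides its place in the ribosome and is needed for some T cells, was measured by 3 tested probe sets. The strongest, 92857_at, had 311.8 and 326.7 at 11.5 dpc and 234.3 and 285.6 at 18.5 dpc (log2 change -0.29 ± 0.17, limma adjusted p = 0.31). The log2 changes of the others were -0.17 ± 0.34 and 0.34 ± 0.54, so the gene had no settled direction. Rpl38, known for its effect on the translation of Hox mRNAs, had 155.0 and 74.5 at 11.5 dpc and 59.0 and 108.9 at 18.5 dpc, and the groups overlapped (log2 change -0.36 ± 0.49).

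In the small subunit 23 probe sets of 17 genes were tested, with a median log2 change of 0.25 over 18.5 against 11.5 dpc. Of these 3 (13%) were called higher and 2 (8.7%) lower, against 7.59% and 6.87% of all tested probe sets. At an unadjusted p under 0.05 limma gave 26.1% higher and 13% lower, against 15% and 13.8% of all. Rps24, whose mutations are a cause of Diamond-Blackfan anaemia, had signals of 9871.7 and 8627.5 at 11.5 dpc, 8650.3 and 10228.6 at 12.5 dpc, 9724.6 and 10686.3 at 14.5 dpc, 11749.4 and 13147.3 at 16.5 dpc, then 17042.6 and 15771.2 at 18.5 dpc. Its samples of the 3 earlier ages overlapped, and both samples of 18.5 dpc were the highest of all 10. The log2 change was 0.83 ± 0.15 (1.78-fold; limma adjusted p = 0.0030). The change was 0.60 (adjusted p = 0.071) with array medians made equal, 0.08 (adjusted p = 0.75) under quantile normalization and -0.22 under the hybridisation controls, with no call in any of these. The quantile value was again held near 0, since this probe set also ranks at the top of its arrays (mean percentile 100). The other Rps24 probe set, 93121_at, was near background (mean 27.7) and was not tested. The annotation gives the called probe set, 97696_r_at, the same source sequence as Rpl7 97695_s_at. Rpl7 went from 9047.8 and 6622.6 to 9247.7 and 8912.2, with overlapping groups and a log2 change of 0.23 ± 0.17. These probe sets thus gave changes of different size, and that difference was not tested. Which transcript 97696_r_at measured was not tested either.

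Rps28 was called higher by both of its strong probe sets. With 100758_at the signals were 6318.8 and 5752.9 at 11.5 dpc, 6163.4 and 6163.1 at 12.5 dpc, 8317.9 and 7549.7 at 14.5 dpc, 7733.7 and 9267.6 at 16.5 dpc, then 9483.7 and 10149.5 at 18.5 dpc. All samples from 14.5 dpc on lay above all samples of 11.5 and 12.5 dpc, and those of 14.5 and 16.5 dpc overlapped. The log2 change to 18.5 dpc was 0.70 ± 0.14 (limma adjusted p = 0.0063), and that of 98085_f_at was 0.66 ± 0.14 (adjusted p = 0.0075), which became -0.35 and -0.39 under the hybridisation controls. With array medians made equal both calls were lost (0.48, adjusted p = 0.13, and 0.44, adjusted p = 0.16). Under quantile normalization 100758_at was 0.38 and still called. The 0.01 of 98085_f_at there (limma adjusted p = 0.97) was held near 0 by its rank at the top of the array (mean percentile 100). Without a filter on low signals 98085_f_at was not called (adjusted p = 0.063). Without 18.5 dpc replicate 2 the adjusted p-values were 0.077 and 0.074, and without 18.5 dpc replicate 1 that of 98085_f_at was 0.071. The third probe set, 98086_r_at, with signals between 24 and 56.5, had a log2 change of 0.19 ± 0.26.

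Rps26, which lies at the mRNA exit of the small subunit, was called lower. Its signals were 5240.7 and 3688.8 at 11.5 dpc, 4457.3 and 3839.3 at 12.5 dpc, 5577.9 and 5420.3 at 14.5 dpc, 4293.8 and 3766.6 at 16.5 dpc, then 2025.9 and 2909.7 at 18.5 dpc. Both samples of 18.5 dpc were lower than every other sample. The log2 change was -0.85 ± 0.24 (1.81-fold lower; limma adjusted p = 0.030). The value was -0.60 (adjusted p = 0.18) without 11.5 dpc replicate 1 and -0.59 (adjusted p = 0.26) without 18.5 dpc replicate 1. The call was also lost with array medians made equal (-0.79, adjusted p = 0.069), relative to the median of the members (-0.64, adjusted p = 0.13) and without the intensity trend (adjusted p = 0.12), and the change was -2.01 under the hybridisation controls. This probe set, 137217_f_at on array C, has a suffix other than the plain _at, which Affymetrix gave to probe sets that may match more than 1 transcript or that relax a design rule. Of the 48 tested members 19 had such a suffix, and of the 10 calls 6 came from them.

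Rps19, a protein of the head of the small subunit that is often mutated in Diamond-Blackfan anaemia, had 6283.7 and 5554.0 at 11.5 dpc and 8465.2 and 8324.0 at 18.5 dpc (log2 change 0.51 ± 0.16, limma adjusted p = 0.059), and -0.55 under the hybridisation controls. Rpsa, also known as the laminin receptor precursor, had 3379.4 and 2298.6 at 11.5 dpc and 2260.1 and 2284.9 at 18.5 dpc (-0.29 ± 0.18, adjusted p = 0.31). For Rpsa the spread of the 11.5 dpc samples was larger than the difference of the age means. Rps20, on array C, ran between 27007.1 and 38180.5 over its 10 arrays with no order by age (-0.04 ± 0.28). The probe sets of Rps13 disagreed: 93027_r_at had a log2 change of 0.86 ± 0.46 and 134043_at of -0.25 ± 0.71, neither called.

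In the P stalk the probe sets of Rplp0 gave different pictures. Rplp0 101213_at on array A had 7656.8 and 6968.2 at 11.5 dpc, 7539.0 and 7907.0 at 12.5 dpc, 8087.5 and 7500.0 at 14.5 dpc, 7225.0 and 7936.3 at 16.5 dpc, then 7491.6 and 7430.6 at 18.5 dpc. These groups overlapped throughout, with a log2 change of 0.03 ± 0.13 to 18.5 dpc that became -1.02 under the hybridisation controls and -0.31 relative to the median of the members. Rplp0 166005_f_at on array C had 6699.1 and 5831.1 at 11.5 dpc, 3409.1 and 5939.4 at 12.5 dpc, 5050.9 and 6990.4 at 14.5 dpc, 2586.2 and 1066.7 at 16.5 dpc, then 631.3 and 1058.7 at 18.5 dpc. All samples up to 14.5 dpc lay above all samples of 16.5 and 18.5 dpc. Its log2 change was -2.91 ± 0.39 (7.51-fold lower; limma adjusted p = 0.00046), and it was called lower in all 22 alternatives that could be run for it, with values from -4.06 to -2.54. For 16.5 against 14.5 dpc alone the log2 change of -1.83 ± 0.39 missed the threshold (adjusted p = 0.052). Which transcript this f-suffixed probe set measured was not tested.

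Rplp2, the other stalk protein measured, had 6414.9 and 4719.4 at 11.5 dpc, 3437.6 and 3394.6 at 12.5 dpc, 5879.2 and 6486.8 at 14.5 dpc, 3912.7 and 5053.0 at 16.5 dpc, then 4386.8 and 4358.6 at 18.5 dpc. The samples of 12.5 dpc were the lowest and those of 14.5 dpc lay above them by a log2 difference of 0.85 ± 0.21 (limma adjusted p = 0.071). This was the highest change of any member in that interval. It passed the threshold when 11.5 dpc replicate 1 (adjusted p = 0.041) or replicate 2 (0.040) was left out of the fit.

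The 3 highest log2 changes of any member from 11.5 to 18.5 dpc belonged to paralogs that are known from particular cells, Rpl3l, Rpl10l and Rpl39l, of which the latter pair was called. Rpl39l, the paralog of Rpl39 known from male germ cells, had signals of 208.2 and 169.1 at 11.5 dpc, 254.8 and 268.9 at 12.5 dpc, 277.5 and 253.1 at 14.5 dpc, 167.2 and 216.8 at 16.5 dpc, then 414.1 and 394.8 at 18.5 dpc. Both samples of 18.5 dpc were far above the rest, and those of 16.5 dpc overlapped those of 11.5 dpc. The log2 change was 1.05 ± 0.17 against 11.5 dpc (limma adjusted p = 0.0019) and 1.03 ± 0.17 against 16.5 dpc (adjusted p = 0.022). The latter was the single member called in 18.5 against 16.5 dpc (1 of 48, 2.08%, against 0.431% of all tested probe sets called higher and 0.193% called lower). At an unadjusted p under 0.05, limma gave 6 members higher (12.5%) and 2 lower (4.17%) in this interval, against 6.30% and 6.78% of all tested probe sets. The call of Rpl39l was lost without 16.5 dpc replicate 1 (log2 change 0.85, adjusted p = 0.19) and without 18.5 dpc replicate 1 (0.99, 0.20) or replicate 2 (1.06, 0.14). It was also lost with array medians made equal (1.01, 0.053) and under the hybridisation controls (0.29, 0.46), where the change against 11.5 dpc was 0.05.

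Rpl10l, an intronless copy of the X-linked Rpl10 known for its need in male meiosis, had 329.1 and 353.5 at 11.5 dpc, 644.0 and 421.5 at 12.5 dpc, 346.6 and 514.1 at 14.5 dpc, 324.0 and 291.7 at 16.5 dpc, then 609.3 and 866.7 at 18.5 dpc. The samples of 18.5 dpc lay above those of 11.5 and 16.5 dpc but overlapped those of 12.5 dpc. The log2 change against 11.5 dpc was 1.06 ± 0.28 (limma adjusted p = 0.025), and -0.08 under the hybridisation controls. It was not called without 11.5 dpc replicate 1 (1.01, adjusted p = 0.095) or replicate 2 (1.11, 0.062), nor without 18.5 dpc replicate 2 (0.81, 0.19), nor without the intensity trend (adjusted p = 0.084). The germ cell marker list moved at the same time: 5 of its 13 tested probe sets were called higher and 2 lower, and its summed signal ran from 1293.9 to 1473.6 at 11.5 dpc and from 4076.3 to 4142.5 at 18.5 dpc, with no marker at 0. Its part in the rise of Rpl39l and Rpl10l was not tested.

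Rpl3l, the paralog of Rpl3 known from heart and skeletal muscle, had 2 weak probe sets on array C. Rpl3l 165907_f_at had 41.6 and 71.4 at 11.5 dpc and 154.8 and 183.9 at 18.5 dpc, and its log2 change of 1.38 ± 0.43, the highest of any member, just missed the threshold (limma adjusted p = 0.0501). Rpl3l 167244_f_at had 60.6 and 55.3 against 131.1 and 120.2 (0.94 ± 0.61, adjusted p = 0.35). Both probe sets were thus higher in both samples of 18.5 dpc, at signals near the testing limit, and under the hybridisation controls their changes were 0.37 and -0.04.

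Rps4l, which RefSeq lists as a transcribed pseudogene related to Rps4x, had with 98149_s_at signals of 1300.6 and 1034.7 at 11.5 dpc, 1052.8 and 1108.4 at 12.5 dpc, 970.8 and 957.3 at 14.5 dpc, 597.7 and 702.7 at 16.5 dpc, then 628.4 and 640.2 at 18.5 dpc. All samples of 16.5 and 18.5 dpc lay below all earlier samples. The log2 change was -0.85 ± 0.15 (1.81-fold lower; limma adjusted p = 0.0031) and was called in all 24 alternatives that could be run for it, from -1.88 to -0.69. The other probe set, 98148_at, had 24.6 and 35.1 at 11.5 dpc and 54.1 and 49.7 at 18.5 dpc (0.58 ± 0.33, not called). Rps4x itself had 8665.1 and 7122.9 at 11.5 dpc and 9647.3 and 9641.4 at 18.5 dpc (0.30 ± 0.14, adjusted p = 0.18; -0.76 under the hybridisation controls). Rps4l 98149_s_at and Rps4x thus had changes of opposite sign as deposited, and the same sign under the hybridisation controls. The weak Rps4l 98148_at had the sign of Rps4x as deposited, so the direction of Rps4l rests on its s-suffixed probe set.

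Rps27l, the paralog of Rps27 known as a target of p53, had 160.3 and 128.0 at 11.5 dpc against 53.6 and 75.4 at 18.5 dpc. The groups did not overlap, but the log2 change of -1.0 ± 0.44 was not called (limma adjusted p = 0.15). Rps27 had 196.0 and 244.1 against 266.3 and 237.7, with overlapping groups (0.19 ± 0.17; -0.79 under the hybridisation controls).

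**Figure D3:**
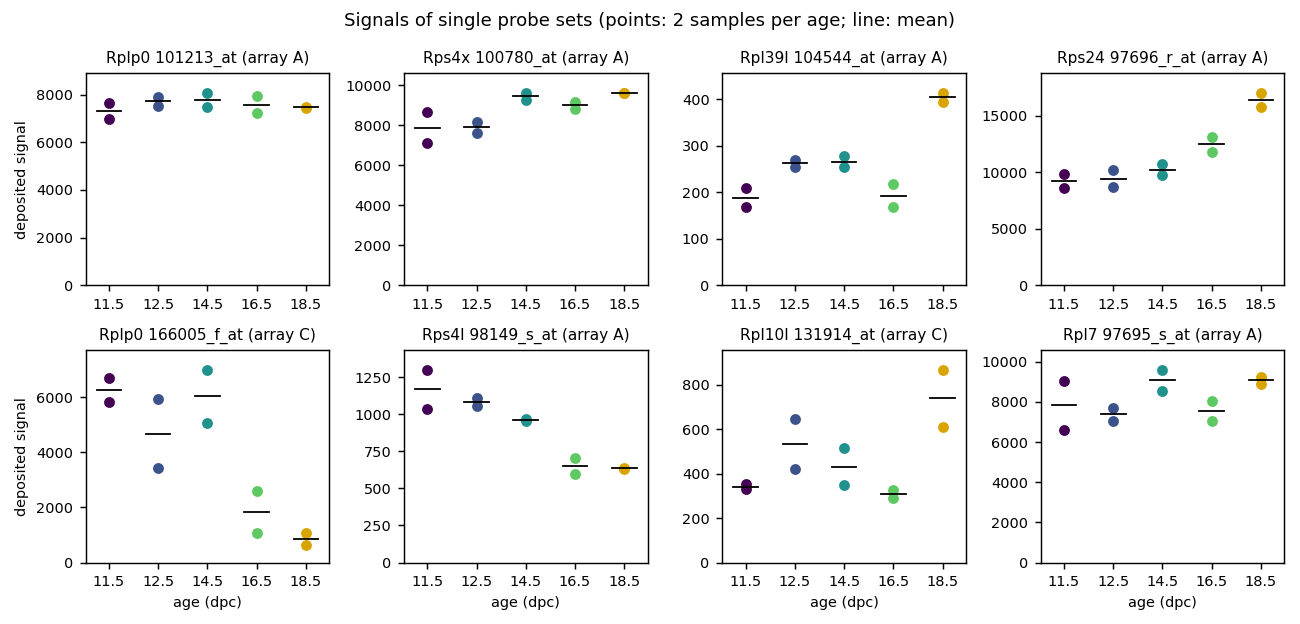
Deposited signals (y axis, from 0) against age in dpc (x axis) for 8 probe sets, with 2 samples per age as points and their mean as a line. Rplp0 falls on array C and not on array A, Rps4l 98149_s_at falls and Rps4x does not, and Rpl39l, Rpl10l and Rps24 are highest at 18.5 dpc. Scaled on hybridisation controls, Rplp0 on array A, Rps4x, Rpl10l and Rps24 are lower at 18.5 than at 11.5 dpc, and the median log2 change of all tested probe sets is -0.89.

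Between neighbouring ages hardly any member passed the test. No member was called for 12.5 against 11.5 dpc (0.197% of all tested probe sets were called higher and 0.0282% lower), for 14.5 against 12.5 dpc (1.08% and 0.576%) or for 16.5 against 14.5 dpc (0.294% and 0.395%). At an unadjusted p under 0.05, limma gave 4 members higher and 1 lower in the earliest interval, 9 higher and 1 lower in 14.5 against 12.5 dpc, and 0 higher and 9 lower in 16.5 against 14.5 dpc. For all tested probe sets the unadjusted shares were 7.46% higher and 4.98% lower in the earliest interval, near the members' 8.33% and 2.08%. They were 7.49% and 7.42% in the next (members 18.8% and 2.08%), and 7.72% and 7.90% in 16.5 against 14.5 dpc (members 0% and 18.8%). The median log2 changes of the members in the 4 intervals were 0.03, 0.23, -0.14 and 0.10, against 0.01, -0.01, 0.00 and -0.01 for all tested probe sets.

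The most extreme single values between neighbouring ages came mostly from weak probe sets. In 12.5 against 11.5 dpc the highest change was that of Rpl13, of the large subunit, on array C, which had 51.8 and 59.1 and then 144.5 and 148.5 (log2 change 1.19 ± 0.40, limma adjusted p = 0.25). It was followed by Rpl19 161961_at (1.01 ± 0.52) and Rps3 168976_i_at (0.98 ± 0.34), and the lowest were Rpl37 (-0.90 ± 0.55), Rplp2 (-0.69 ± 0.21) and Rplp0 166005_f_at (-0.47 ± 0.39). In 14.5 against 12.5 dpc Rpl37 (0.81 ± 0.55) and Rpl13a (0.62 ± 0.21) followed Rplp2, and the lowest were Rpl22 170901_i_at (-1.22 ± 0.54), Rpl3l 167244_f_at (-0.82 ± 0.61) and Rps27l (-0.80 ± 0.44). Rpl13a, known beyond the ribosome for silencing of inflammatory mRNAs, had 957.6 and 1277.7 at 12.5 dpc, 1719.2 and 1696.2 at 14.5 dpc, then 968.9 and 1321.4 at 16.5 dpc, so that its samples of 14.5 dpc stood above both neighbouring ages. None of these changes was called.

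In 16.5 against 14.5 dpc the lowest changes were those of Rplp0 166005_f_at, Rpl19 161961_at (-0.76 ± 0.52) and Rpl22 170901_i_at (-0.59 ± 0.54), with Rpl13a next (-0.59 ± 0.21), and the highest were Rpl3l 167244_f_at (0.72 ± 0.61), Rps13 93027_r_at (0.66 ± 0.46) and Rpl37 (0.60 ± 0.55). In 18.5 against 16.5 dpc the highest was Rpl22 170901_i_at (1.89 ± 0.54, limma adjusted p = 0.16), followed by Rpl10l (1.2 ± 0.28, adjusted p = 0.087) and Rps3 168181_i_at (1.12 ± 0.33, adjusted p = 0.16). Rps3, which also takes part in DNA repair, had 140.9 and 228.3 at 16.5 dpc and 432.2 and 387.9 at 18.5 dpc with this probe set, and the groups did not overlap. Its strong probe set, 101137_at (mean 8105), had a change of only 0.27 ± 0.17 in this interval, and 168976_i_at had -0.17 ± 0.34. The lowest were Rplp0 166005_f_at (-1.01 ± 0.39), Rpl37 (-0.95 ± 0.55) and Rps26 (-0.72 ± 0.24). The same weak probe sets of Rpl37, Rpl19 and Rpl3l appear with both signs among these values, and their standard errors exceed 0.5.

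In 14.5 against 12.5 dpc all 25 members with a mean signal of at least 1000 had a positive log2 change, with a median of 0.33. Under quantile normalization 16 of the 25 were positive, with a median of 0.04, but that method leaves the highest ranks of an array little room to change. Under the other scalings between 22 and 25 were positive. The 23 weaker members had a median of -0.13 as deposited, with 8 positive. Among 308 other probe sets of array A with a mean of at least 1000 the median in this interval was 0.14, with 193 positive. For the 21 strong members on that array it was 0.30. Probe sets with a ribosomal protein symbol among several are part of the 308. From 11.5 to 18.5 dpc the same 308 had a median of -0.12 and the 21 members one of 0.30. The 45 tested probe sets that list a ribosomal protein symbol among several had medians of 0.32 in 14.5 against 12.5 dpc and 0.25 from 11.5 to 18.5 dpc, where 7 were called higher and 2 lower. By array type the medians from 11.5 to 18.5 dpc were 0.27 for the 31 tested members on A and -0.15 for the 16 on C. The probe sets with several symbols lie on the same arrays and are no independent evidence of the shift.

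The samples of an age differed by amounts of the same size as these shifts. Over the 21 strong members on array A the median signals were 6319 and 5554 at 11.5 dpc, 5705 and 6163 at 12.5 dpc, 7826 and 7500 at 14.5 dpc, 6247 and 7936 at 16.5 dpc, then 7492 and 7431 at 18.5 dpc. At 11.5 dpc replicate 1 was higher in 18 of the 21, by a median log2 difference of 0.23, and at 16.5 dpc it was higher in 2, with a median difference of -0.19. The median of 16.5 dpc replicate 1 lay within the range of the 11.5 and 12.5 dpc samples. Members of array A made up 5.65% and 5.22% of the summed signal of the array at 11.5 dpc, 5.44% and 5.76% at 12.5 dpc, 6.57% and 6.25% at 14.5 dpc, 6.06% and 6.67% at 16.5 dpc, then 6.86% and 6.92% at 18.5 dpc. The share at every sample of 14.5 dpc and later was above that of every sample of 11.5 and 12.5 dpc.

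**Figure D4:**
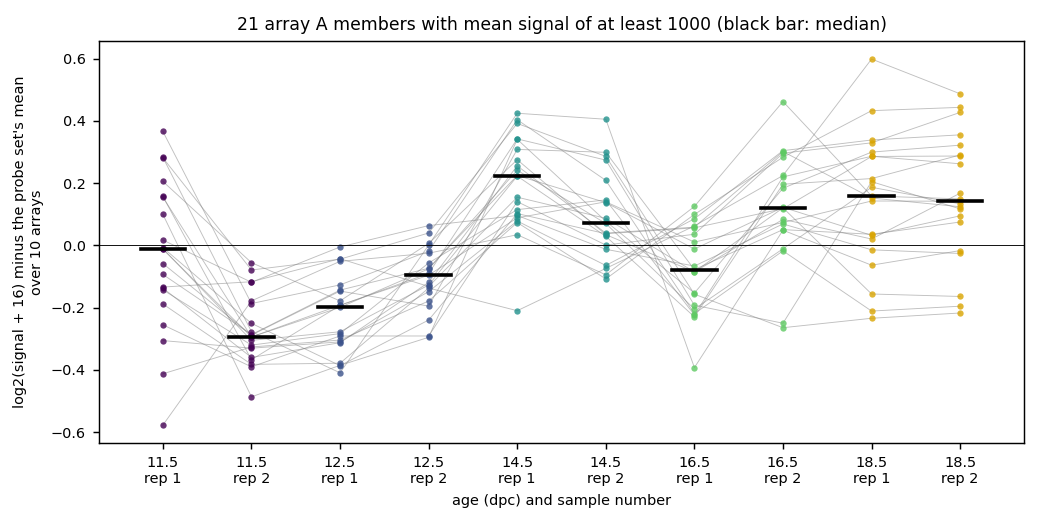
Log2(signal + 16) of the 21 strong members on array A, each minus its own mean over the 10 arrays (y axis), by age in dpc and replicate (x axis). Points are probe sets, grey lines join a probe set and black bars are medians; replicate 1 of 11.5 dpc and replicate 2 of 16.5 dpc stand above the other sample of their age.

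The size and the sign of the family's shift depended on how the arrays were made comparable. As deposited, each array had been scaled so that its mean without the outer 2% at each end was between 125.06 and 125.08 on array A, and 20 or 21 of the 47 members on that array lay in the top 2% that such a mean leaves out. Recomputing this mean without the members left their median change from 11.5 to 18.5 dpc at 0.25. With probe sets of like signal made equal the median was 0.32, with 13 members called higher and 3 lower (8.48% and 6.45% of all). With array medians made equal it was 0.04, with 3 higher and 2 lower (5.81% and 8.44% of all), and with quantile normalization 0.05, with 7 higher and 4 lower (7.31% and 7.31% of all). Relative to the median of the members themselves 7 were higher and 7 lower of 47 (5.74% and 9.28% of all), and Rpl27, alone on array B, dropped out. That scaling sets the member median near 0 by construction and shows only how members differ from each other.

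The hybridisation controls are bacterial and phage transcripts. They had a mean log2 signal on array A between 9.35 and 10 at 11.5 to 16.5 dpc and of 10.73 and 10.64 at 18.5 dpc. On arrays B and C they were above all earlier samples already at 16.5 dpc (11.32 and 11.2 on B, 12.38 and 12.27 on C). At 18.5 dpc they were higher still (11.8 and 11.64 on B, 12.78 and 12.86 on C). Making them equal moved the median change of all tested probe sets from 11.5 to 18.5 dpc to -0.89, and 46.1% of all were then called lower and 1.19% higher. The member median became -0.73, which is 0.16 above that of all, with 26 members (54.2%) called lower and 0 higher. The members' median thus lay above that of all tested probe sets on this scale too, while the sign of their own change turned. Their share called lower was also above that of all.

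**Figure D5:**
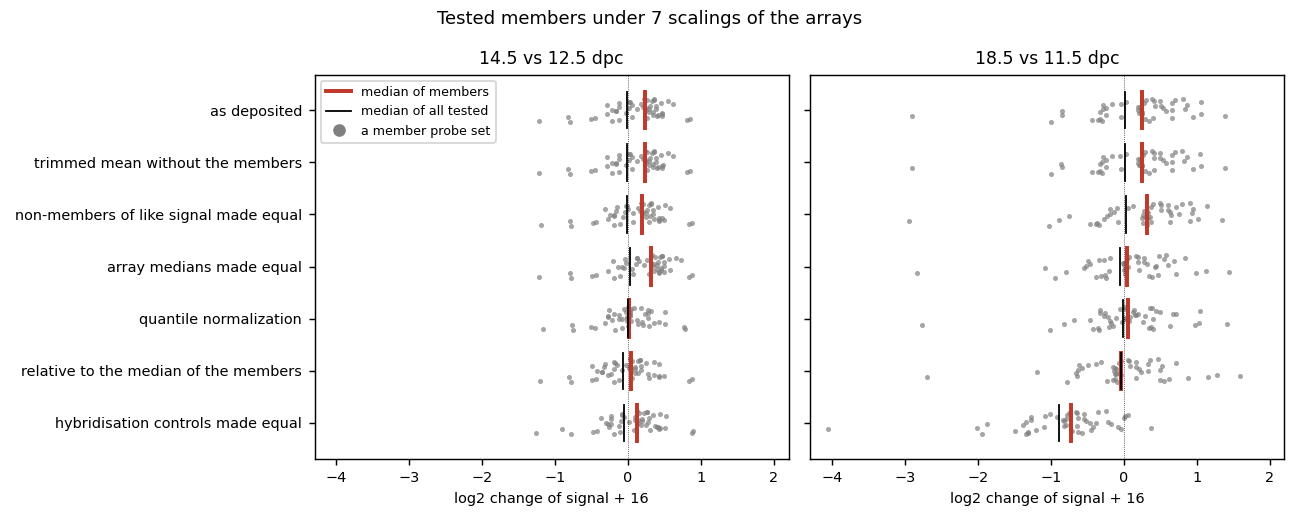
Log2 change of signal + 16 (x axis) of the tested members (grey points) in 14.5 against 12.5 dpc and in 18.5 against 11.5 dpc under 7 scalings of the arrays (y axis), with medians of the members (red) and of all tested probe sets (black). The member median of 18.5 against 11.5 dpc runs from -0.73 with hybridisation controls made equal to 0.32 with probe sets of like signal made equal. Relative to the median of the members it is near 0 by construction.

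Genes that work on or beside the ribosome had other medians than the members. Of 130 tested probe sets of 69 ribosome biogenesis factors, 4 were called higher from 11.5 to 18.5 dpc (3.08%) and 15 lower (11.5%), with a median log2 change of -0.11. Nmd3, the export adaptor of the large subunit, went from 159 ± 25.8 to 522 ± 1.77 (SD, n = 2; log2 change 1.63, limma adjusted p = 6.4e-05). The RNA helicase Ddx56 rose (1.70, adjusted p = 0.017). The nucleolar protein Pes1 fell (-1.16, adjusted p = 0.010), as did Bysl, a factor of small subunit assembly (-1.12, adjusted p = 0.019). Mitochondrial ribosomal proteins, which serve a separate ribosome, had 6 of 109 called higher and 5 lower, with a median of 0.02. Among them Mrps18a was higher (1.02, adjusted p = 0.0078) and Mrpl18 lower (-1.2, adjusted p = 0.0023).

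Other transcripts of the TOP class had 2 of 21 probe sets called higher and 3 lower, with a median of -0.02. Tpt1, the translationally controlled tumour protein, rose by a log2 change of 0.83 (limma adjusted p = 0.0015), and the elongation factor Eef1a1 by 0.54 (adjusted p = 0.024). The histone chaperone Nap1l1 was lower in both called probe sets (-1.61, adjusted p = 0.00029, and -0.96, adjusted p = 0.0019). Among 38 probe sets of regulators of ribosomal protein synthesis 1 was called higher and 4 lower, with a median of -0.28. Those lower included 2 probe sets of Gabpb1, a subunit of the factor that binds the GABP letters (-1.37 and -1.60, adjusted p = 0.0017 and 0.0079), the translation inhibitor Eif4ebp1 (-0.83, adjusted p = 0.0084) and the transcription factor Yy1 (-0.75, adjusted p = 0.039). As deposited, and with no test of the difference, the members' median lay above those of these lists.

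Markers of cell types and of dividing cells changed over the same ages. Of 23 probe sets of proliferation genes 12 were called lower and 1 higher from 11.5 to 18.5 dpc, among them Top2a, the topoisomerase of dividing cells (log2 change -1.76, limma adjusted p = 4.5e-05). Supporting cell markers had 5 of 8 higher, with a summed signal of 1857.8 to 2492.2 at 11.5 dpc and 3187.0 to 3457.2 at 18.5 dpc; Foxl2, which marks the supporting cells of the ovary, went from 92.0 ± 3.54 to 730 ± 89.0 (SD, n = 2). Surface epithelium markers had 5 of 5 higher (626.4 to 810.8, then 2605.3 to 2720.5) and endothelial markers 3 of 5 lower (637.2 to 778.8, then 270.0 to 325.1). Erythroid markers had 2 of 6 higher and 4 lower (21720.7 to 24315.5, then 16532.1 to 16903.7), and mesenchymal markers 3 of 13 in each direction (3653.4 to 4385.8, then 5185.5 to 5232.8). Macrophage markers had no call among 6 in limma's test, also at an unadjusted p under 0.05, and ran from 245.6 to 346.3 and then from 232.9 to 339.2. The mesonephros markers on the arrays (2 of 3 genes) were too weak to test, with summed signals between 15.9 and 52.4. No listed marker was at 0. The Gapdh control, whose 3 prime signal divided by its 5 prime signal tracks RNA integrity, gave ratios averaged over the array types. These ran from 0.829 to 0.845 at the 2 earliest ages, from 0.885 to 0.951 at 14.5 dpc and from 1.05 to 1.08 at 18.5 dpc. In replicate 1 of 16.5 dpc the ratio was 0.917, while replicate 2 had the highest of all samples, 1.09. The same ratio of the actin control had another course, with 1.77 and 1.5 at 11.5 dpc, then 1.18 and 1.3 at 12.5 dpc. Its highest value, 2.19, belonged to replicate 2 of 14.5 dpc, where replicate 1 had 1.71. Later ratios ran from 1.54 to 1.56 at 16.5 dpc, then from 1.74 to 1.82 at 18.5 dpc. This ratio thus rose from 12.5 to 14.5 dpc, the interval in which all 25 strong members had a positive change. The 3 prime control for the ribosomal RNA of the small subunit on array A had 490.6 and 185.6 at 11.5 dpc against 1896.3 and 1540 at 18.5 dpc. The part of cell composition and of RNA quality in the members' changes was not tested.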

How the data were processed

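The deposited tables give a signal intensity for each probe set of each array; per the labels, the authors brought every array to a mean of 125. Which software made them was not given in the sources used here. Probe sets were named through the platform annotation. The members and lists were chosen with earlier results of these data known.

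Signals were used as deposited, as log2(signal + 16). Probe sets with a signal of at least 50 on at least 2 of the 10 arrays of a type were kept (24825 of 36701). Each array type was fitted separately in limma 3.58.1 (R 4.3.3) with the 5 ages as groups, all 10 arrays, 5 residual degrees of freedom and an intensity trend in eBayes. P-values were adjusted by Benjamini-Hochberg over all 3 types, with calls at an adjusted p under 0.05. The fit was tested on simulated data.

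Named were the 8 largest called changes per comparison, the 3 highest and 3 lowest changes of each age contrast, 22 genes with known other roles or close paralogs, genes whose tested probe sets lay over 1 log2 unit apart, and up to 4 called genes of each list. Rpl6, Rpl7, Rpl7a, Rpl8, Rpl10a, Rpl19, Rpl37a, Rps20 and the strong second probe set of Rps28 were added after their values were seen. Alternatives were other scalings, pseudocounts (4 and 64), filters (none, and 100), variance models and probe set choices, the replicate number as a block, and leaving out each sample. Promoter sequences came from RefSeq (GRCm38.p6). Whether A, B and C arrays with the same number carried the same RNA is not stated.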

Additional observations from a re-analysis of the deposited data

How the results depend on the processing

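The 11 calls of members (10 in 18.5 against 11.5 dpc and 1 in 18.5 against 16.5 dpc) gave 264 alternative values, of which 217 kept direction and call, 41 kept the direction but lost the call and 6 turned round. All 6 came from making the hybridisation controls equal: Rpl41 -0.25, Rps28 -0.35 and -0.39, Rpl19 -0.52, Rps24 -0.22 and Rpl10l -0.08. Under the same scaling Rps4x (-0.76), Rplp0 101213_at (-1.02), Rps19 (-0.55) and Rps27 (-0.79) were called lower, and relative to the members' median Rplp0 101213_at was (-0.31). This scaling called 3 members in 16.5 against 14.5 dpc (median -0.40; 772 of all 24825), 11 in 18.5 against 16.5 dpc (-0.58; 1331 of all), 26 in 18.5 against 11.5 dpc (-0.73; 11732 of all) and 28 in the F test (10281 of all). With array medians equal 0 were called by limma in 18.5 against 16.5 dpc (131 of all), 5 in 18.5 against 11.5 dpc (median 0.04; 3539 of all) and 3 in the F test (3383 of all), and the median of 12.5 against 11.5 dpc was -0.17. Quantile normalization gave medians of 0.01 in 14.5 against 12.5 dpc and 0.05 in 18.5 against 11.5 dpc. Probe sets of like signal made equal gave 16 calls in 18.5 against 11.5 dpc (3707 of all). Relative to the members the medians were near 0 by construction (0.04 in 14.5 against 12.5 dpc, -0.05 in 18.5 against 16.5 dpc and -0.04 in 18.5 against 11.5 dpc). In 16.5 against 14.5 dpc 1 member was called with a pseudocount of 64 (246 of all) and 1 with a minimum of 100 (253 of 17634). The F test called 4 without a filter (2919 of 36701), 5 without the intensity trend (2398 of 24825) and 3 with plain suffixes (2979 of 19324), where 18.5 against 11.5 dpc had 4 (2854). The causes were not tested.

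Leaving out 1 sample gave 0 calls throughout in 12.5 against 11.5 dpc (limma), 0 to 2 in 14.5 against 12.5 dpc, 0 to 4 in 16.5 against 14.5 dpc, 0 to 1 in 18.5 against 16.5 dpc, 6 to 11 in 18.5 against 11.5 dpc and 2 to 15 in the F test. Calls among all 24825 ran, in that order, from 2 to 553, 112 to 830, 30 to 564, 33 to 242, 1562 to 3478 and 1812 to 4366. The member medians ran from -0.08 to 0.14, 0.15 to 0.28, -0.29 to -0.04, 0.04 to 0.15 and 0.21 to 0.37 in the same order of contrasts. Samples with the same number did not deviate together (correlations of deviations from -0.16 to 0.22 over 10 pairs of ages), and with the replicate block 10 members were called in 18.5 against 11.5 dpc, 1 in 18.5 against 16.5 dpc and 7 in the F test (3415, 126 and 3301 of all). Signals near 50 lie close to background, which limits what tested members with signals of that size can show.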
